A study of Homo sapiens with 6 samples.

Results

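The genes described here are 10 components of the RNA interference and microRNA (miRNA) machinery: DROSHA, DGCR8, XPO5, DICER1, TARBP2, AGO1, AGO2, AGO3, AGO4 and TNRC6A. They were chosen by name, and all 10 were among the 34834 genes with a transcript in the quantified set. The 6 samples were SKOV3 cells, a human ovarian cancer line. In 3 of them the long non-coding RNA DNM3OS was knocked down with a pool of siRNAs, and 3 were transfected with a pool of non-targeting siRNAs. Every sample, controls included, received 50 nM siRNA with a lipid reagent and was profiled by RNA sequencing at 48 h, so both groups held cells with siRNA for the silencing machinery to load. Untransfected cells were not analysed here. The comparison asks whether the RNA of these genes differed when the siRNA was directed at DNM3OS.

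Small RNAs guide Argonaute proteins to messenger RNAs. A primary miRNA transcript is cut in the nucleus by the Microprocessor, the nuclease DROSHA with its RNA-binding partner DGCR8, and the hairpin leaves the nucleus with Exportin-5 (XPO5). DICER1, with its partner TARBP2, cuts the hairpin to a duplex, and one strand is loaded into AGO1, AGO2, AGO3 or AGO4. Synthetic siRNA enters at this last step. AGO2 is the Argonaute best known for slicing a fully paired target, and TNRC6A (GW182) is the scaffold through which Argonautes recruit deadenylation and decay factors.

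DNM3OS is the host of a pair of miRNA hairpins, MIR214 and MIR199A2, whose maturation uses the processing steps described above. Their mature sequences are shown because they connect the targeted RNA to this machinery, although small RNAs were not measured. They are from RefSeq (GRCh38.p14, minus strand of chromosome 1) and are written 5′ to 3′, with the seed (bases 2 to 8) in capitals.
hsa-miR-214-3p, chr1:172138816-172138837: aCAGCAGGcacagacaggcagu
hsa-miR-214-5p, chr1:172138857-172138878: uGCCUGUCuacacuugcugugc
hsa-miR-199a-3p, chr1:172144554-172144575: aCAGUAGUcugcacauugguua
hsa-miR-199a-5p, chr1:172144592-172144614: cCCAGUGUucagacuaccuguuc
The 4 seeds differ from each other.

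The samples held between 1523156 and 1868461 estimated counts on annotated genes, so that 3 counts corresponded to between 1.61 and 1.97 CPM (a counts-per-million scale). Counts fell on unusual genes for a cell line: the 79 ribosomal protein genes took 0.190% to 0.510% of all counts in a sample, while BEST1, whose exons share 1267 bases with FTH1 on the opposite strand, had at least 26509 estimated counts per sample against at most 550 for FTH1. A single gene, PLLP, took between 15.7% (knockdown replicate 1) and 22.2% (knockdown replicate 2) of the counts. Transcripts with an exon overlapping an annotated exon on the opposite strand were 17.98% of the annotated transcripts and held 58.3% of the counts. The libraries were made with a stranded kit and the strand setting of the quantification is not given in the sources used here, so RNA of either strand cannot be told apart in the values below. Of the 10 epithelial and ovarian markers, KRT8, KRT18, KRT19, ERBB2, EPCAM and PAX8 had at least 16 counts in every sample, KRT7 had 4 to 12, and WT1, MUC16 and MSLN had at most 4. Summed CPM of the leukocyte list (PTPRC, CD3E and CD68) was 93.7 to 112 in the knockdown and 89.3 to 97.8 in controls, with PTPRC at 91 to 148 counts, CD68 at 40 to 67 and CD3E at 0 to 2. That of the fibroblast list was 37.3 to 45.0 and 31.8 to 51.5, with DCN at 29 to 58 counts, COL1A1 at 10 to 19, COL1A2 at 8 to 22 and LUM at 0 to 3. That of the endothelial list was 16.6 to 30.5 and 18.7 to 26.0, with PECAM1 at 24 to 62 counts, CDH5 at 0 to 4 and VWF at 0 or 1. Markers of these other cell types were thus not all absent, and their part in the results was not tested. Knockdown replicate 1 stood apart from both other knockdown samples (chi-square of 11.3 and 11.8 per degree of freedom, against 2.23 between those) and had the lowest ribosomal protein share. Its nearest sample was non-targeting replicate 2 (5.52), which itself was nearest to knockdown replicate 2 (3.18). Knockdown replicate 3 and non-targeting replicate 3 were nearest to each other (2.04). Only knockdown replicate 2 (2.23) and non-targeting replicate 1 (2.12) were nearest to a sample of their own group. No transcript of DNM3OS was found among the quantified transcripts matched to annotated genes, so the labels could not be checked against the targeted RNA. Nothing says that the replicates were separate cultures, and p-values measure only the spread between these samples, which may be technical. In bulk samples such as these, fewer cells expressing a gene and less of its RNA per cell cannot be told apart.

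Per unit of length, XPO5 had the highest level of the 10 genes by far. Its TPM (a transcripts-per-million scale that allows for length), summed over its transcripts, was 182 ± 16.1 (SD, n = 6), above that of 97.8% of the 22953 genes with any TPM. DROSHA followed with 42.6 ± 9.61 TPM (SD, n = 6) and TARBP2 with 38.8 ± 6.98 TPM (SD, n = 6). The ranges of DROSHA and TARBP2 overlapped, and DROSHA was the higher in 3 of 6 samples, whereas XPO5 was above both in every sample. TNRC6A had 17.4 ± 4.48, AGO3 14.6 ± 2.72 and DGCR8 13.2 ± 7.41 TPM (SD, n = 6 each), and the neighbours in this trio overlapped. DICER1 had 4.94 ± 2.62 TPM (SD, n = 6), lower than DGCR8 in 6 of 6 samples, and AGO2 had 3.79 ± 2.05 TPM (SD, n = 6). The lowest were AGO4 with 1.99 ± 2.79 and AGO1 with 1.72 ± 0.449 TPM (SD, n = 6 each). AGO4 had 7.68 TPM in knockdown replicate 2 and at most 1.07 in the other samples. In that sample 0.832 and 0.572 estimated counts fell on AGO4 transcripts of 297 and 522 bases, and its long transcript held 8.16.

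**Figure D1:**
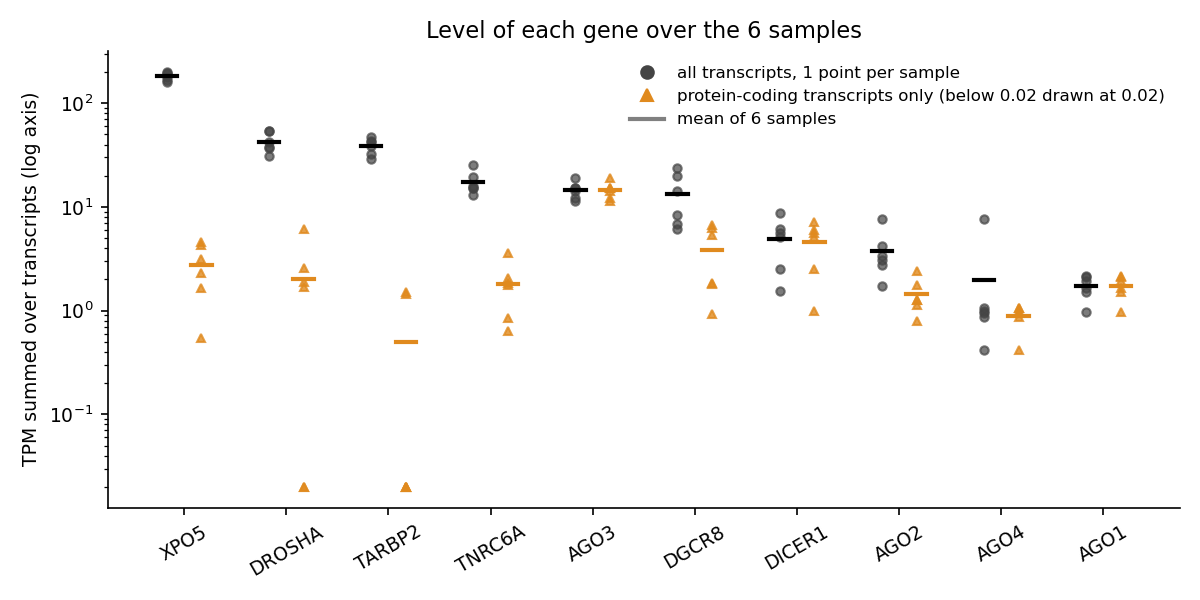
TPM of each gene in the 6 samples on a log axis, summed over all its transcripts (grey circles) and over transcripts annotated as protein-coding (orange triangles), with bars at the means. XPO5 fell from 182 to 2.76 and TARBP2 from 38.8 to 0.494 when protein-coding transcripts alone were summed, while AGO3 stayed at 14.6.

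The high places of XPO5, DROSHA and TARBP2 in this order rested mostly on transcripts not annotated as protein-coding. Summed over transcripts annotated as protein-coding, an alternative added after the values were seen, AGO3 was the highest with 14.6 ± 2.72 TPM (SD, n = 6), and its lowest sample, 11.5, lay above the highest of any other member, 7.23 for DICER1. XPO5 then had 2.76 ± 1.56, DROSHA 2.04 ± 2.24 and TARBP2 0.494 ± 0.765 TPM (SD, n = 6 each). DROSHA had no count on a protein-coding transcript in knockdown replicate 2 and non-targeting replicate 2, and TARBP2 none in 4 of 6 samples. All neighbours below AGO3 in this second order overlapped.

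The counts of the Microprocessor genes came from few reads. DROSHA (ENSG00000113360, GRCh38 chromosome 5 from 31400494 to 31532196, minus strand) had 94.6 estimated counts over the 6 samples. Of these, 51.4% fell on a transcript of 379 bases with no defined coding sequence (ENST00000510178) and 16.7% on protein-coding transcripts. No exon of a quantified DROSHA transcript overlapped an exon on the other strand. DGCR8 (ENSG00000128191, chromosome 22 from 20080221 to 20111877, plus strand) had 195 counts, 54.7% on protein-coding and 45.3% on intron-retaining transcripts. Its transcripts with 91.3% of its counts overlapped the non-coding gene ENSG00000243762 on the minus strand, over 526 bases of exon.

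XPO5 (ENSG00000124571, chromosome 6 from 43522334 to 43576038, minus strand) had 1287 counts over the 6 samples, and 72.3% of them fell on transcripts annotated as retaining an intron. The share was alike between samples, from 67.5% to 76.0%. A retained-intron transcript of 3629 bases (ENST00000455854) held 38.2%, and the full protein-coding transcript of 5364 bases (ENST00000265351) 6.74%. POLR1C, a subunit gene of RNA polymerases I and III on the plus strand, spans 74.6% of the XPO5 gene, mostly with its introns, since 348 bases of XPO5 exon were shared with POLR1C exons. POLR1C had 54 to 75 estimated counts per sample. Over all genes, intron-retaining transcripts held 12.0% of the counts.

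DICER1 (ENSG00000100697, chromosome 14 from 95086228 to 95158010, minus strand) had 134 counts, 98.9% on protein-coding transcripts. Its transcript of 10331 bases (ENST00000526495), whose exons share 80 bases with the antisense gene DICER1-AS1, held 71.7%. TARBP2 (ENSG00000139546, chromosome 12 from 53500921 to 53506431, plus strand) had 333 counts, of which 83.0% fell on a single transcript annotated for nonsense-mediated decay (ENST00000550147, 1855 bases). Transcripts that overlap ENSG00000270175, a non-coding gene on the minus strand across the start of TARBP2, held 95.6% of its counts.

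The Argonaute counts sat on long coding transcripts. AGO4, AGO1 and AGO3 lie in this order, head to tail, on the plus strand of chromosome 1 between 35808016 and 36072500, and AGO2 (ENSG00000123908) is on chromosome 8 from 140520156 to 140635633, minus strand. A single transcript held 95.3% of the 1328 counts of AGO3 (ENST00000373191, 19687 bases), 99.9% of the 156 of AGO1 (ENST00000373204, 12790 bases), 94.4% of the 140 of AGO2 (ENST00000220592, 14581 bases) and 96.9% of those of AGO4 (ENST00000373210, 7116 bases). AGO3 had the most counts of the members and was the fifth by TPM, which divides by length. The AGO3 transcript overlaps 86 bases of exon of ENSG00000271554 and the AGO1 transcript 396 bases of ENSG00000271914, both non-coding genes on the minus strand, and no AGO2 or AGO4 exon had such an overlap.

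TNRC6A (ENSG00000090905, chromosome 16 from 24610209 to 24827632, plus strand) divided its counts between a retained-intron transcript of 2550 bases (ENST00000462400) with 49.8% and the protein-coding transcript of 8303 bases (ENST00000315183) with 42.9%. On the coding transcript, the knockdown samples had 7.12, 18.7 and 15.5 estimated counts and the controls 35.8, 7.67 and 18.1. On the retained-intron transcript they had 33.9, 21.8 and 16.9, and 12.7, 16.03 and 18.3. The sample lowest on the first, knockdown replicate 1, was the highest on the second, and non-targeting replicate 1 was the reverse. These samples also had the lowest and the highest share of ribosomal protein counts, 0.190% and 0.510%, and the part of that axis in the split was not tested.

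**Figure D2:**
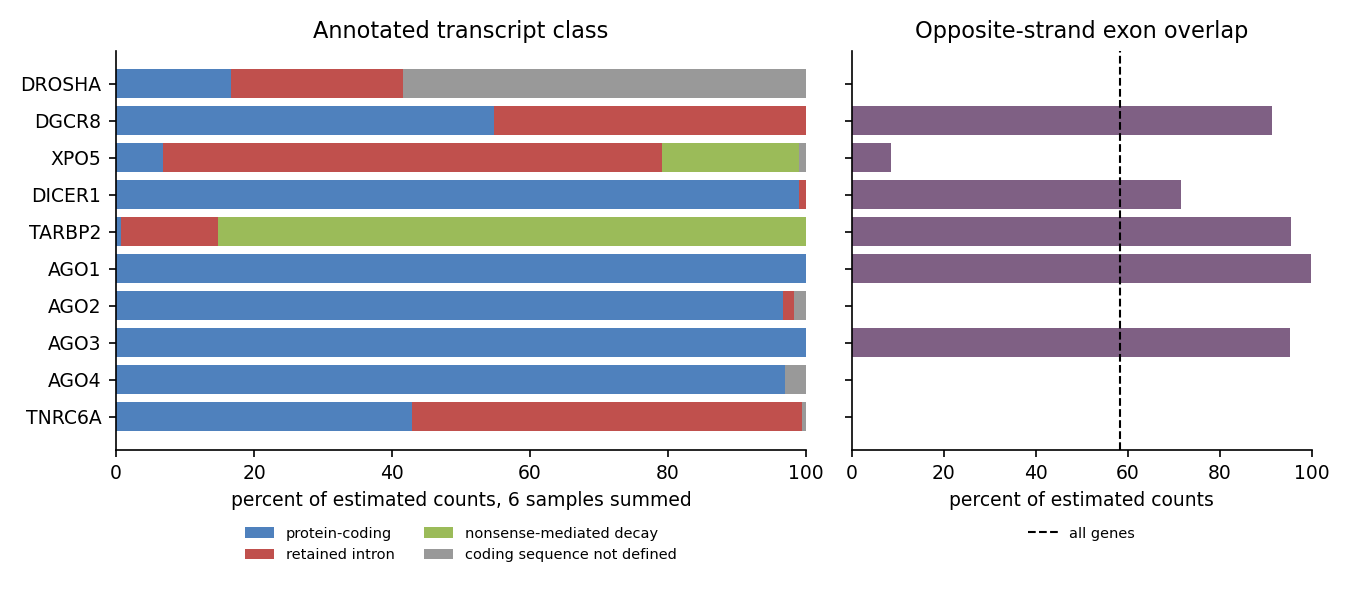
Left, share of each gene's estimated counts (percent, 6 samples summed) by annotated transcript class. Right, share on transcripts with an exon overlapping an opposite-strand exon, with all genes at 58.3% (dashed). XPO5, TARBP2 and DROSHA had few counts on protein-coding transcripts, and DROSHA, AGO2, AGO4 and TNRC6A none on overlapped ones.

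Some of the transcripts also contain sequence that occurs in many other genes, which bears on how surely a read was assigned. Of the 31-base words in AGO3 transcripts, 7.33% were found, on either strand, in quantified transcripts of 5855 other genes. The share was 2.19% for TNRC6A, 1.93% for XPO5 and 1.497% for AGO4, and under 0.5% for each of the other 6, with none for DGCR8 and TARBP2. In the retained-intron transcript of TNRC6A named above it was 9.92%, against 0.0121% in the coding one, and in a 633-base retained-intron transcript of XPO5 (ENST00000450462) 18.2%. The 4 Argonautes were distinct at this word length, since AGO2 shared no word with AGO1, AGO3 or AGO4, AGO1 shared 2 with AGO3, and AGO3 shared 13 with AGO4.

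After DNM3OS knockdown, none of the 10 genes passed the threshold of a 2-fold change with an adjusted p below 0.05. Of the 9 with enough counts for edgeR's exact test, 5 had a lower and 4 a higher value, with log2 fold changes between -0.42 and 0.43 and a median of -0.02, against a median of 0.00 over the 11814 genes tested. The adjusted p was 1 for each of the 9 (edgeR's exact test, Benjamini-Hochberg), and 0 of 9 had an unadjusted p below 0.05. Across all tested genes, the threshold was passed by 0.00846%, and an unadjusted p below 0.05 by 2.81%. EdgeR's quasi-likelihood test and DESeq2 called 0 of the 9 as well. Summed over the 10 genes, the CPM was 372, 409 and 417 after knockdown and 367, 358 and 407 in controls, or 399 ± 23.8 against 377 ± 25.7 (SD, n = 3 each). The groups overlapped. AGO3 and XPO5 together made up between 59.9% and 73.2% of this sum.

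**Figure D3:**
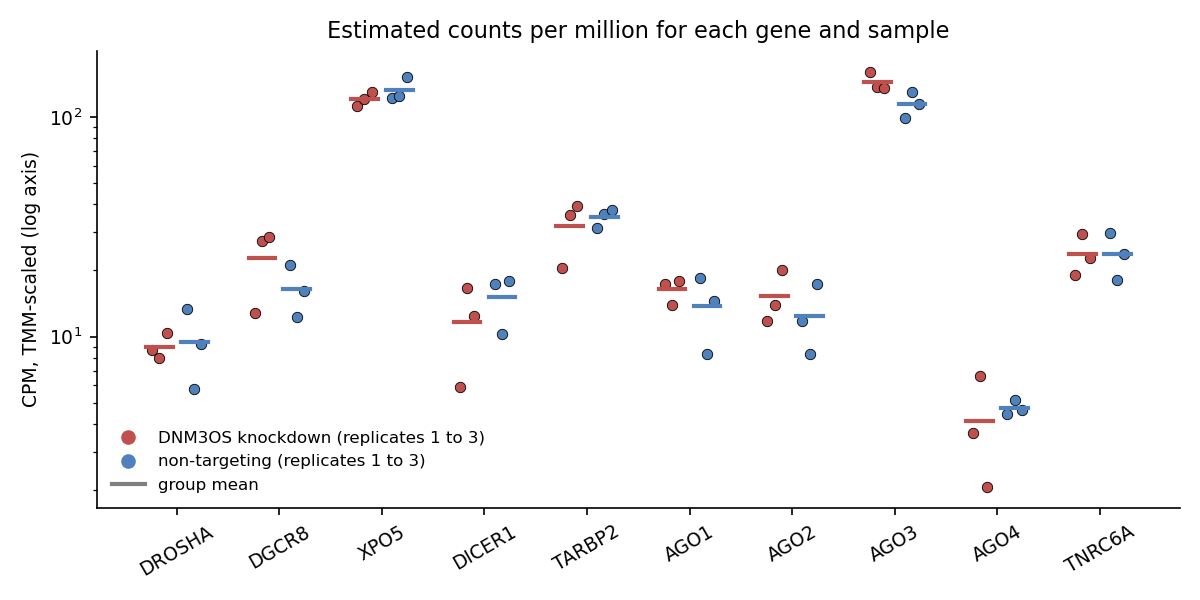
CPM of each gene in each knockdown (red) and non-targeting (blue) sample on a log axis, with bars at the group means. Only for AGO3 did the groups not overlap on this TMM-scaled measure.

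AGO3 was the only one of the 9 tested genes whose groups did not overlap in TMM-scaled CPM. Its CPM was 161, 136 and 135 after knockdown and 98.8, 129 and 114 in controls. Every knockdown sample lay above every control, though the gap between 129 and 135 was small. On unscaled totals the groups overlapped. There non-targeting replicate 2 (201 counts of 1523156) lay above knockdown replicates 2 (205 of 1622115) and 3 (195 of 1563264). The log2 fold change was 0.34 (standard error 0.14), and an exact permutation test gave p = 0.1, the smallest that 3 samples against 3 allow. Among all tested genes, 4.48% had knockdown samples all above the controls and 3.5% all below, and a single gene of 9 cannot be set apart from that background. Counted only on transcripts without an opposite-strand exon overlap, which held at most 6.33% of AGO3 counts in a sample, its log2 fold change was -0.25. With length-scaled TPM counts (counts rebuilt from TPM and length) it was 0.12. In TPM the groups overlapped, at 19.1, 11.5 and 15.4 after knockdown and 12.1, 15.2 and 14.3 in controls.

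The other Argonautes were measured with few counts and overlapped between groups. AGO1 had 17.3, 14.0 and 17.95 CPM after knockdown and 18.4, 8.36 and 14.4 with non-targeting siRNA. Its log2 fold change was 0.25 (standard error 0.33). AGO2, the slicing Argonaute, had 11.8, 14.0 and 20.02 CPM against 11.7, 8.36 and 17.3, a log2 fold change of 0.27 (standard error 0.35). For both, non-targeting replicate 2 was the lowest sample. Leaving out single samples gave 0.01 (without non-targeting replicate 2) to 0.51 (without non-targeting replicate 1) for AGO1, and 0.04 (without knockdown replicate 3) to 0.57 (without non-targeting replicate 3) for AGO2. AGO4, with 8, 10 and 3 estimated counts against 8, 8 and 8, was below the filter on low counts. Its log2 fold change was -0.20 with no filter and -0.21 with a filter of 1 CPM in 3 samples, with an adjusted p of 1 in both (edgeR's exact test).

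In the Microprocessor, DGCR8 had the highest log2 fold change of the 9 tested genes, 0.43 (standard error 0.41). It had 12.7, 27.2 and 28.3 CPM after knockdown and 21.2, 12.2 and 16.2 in controls. Of the knockdown samples, 2 lay above all controls and replicate 1 lay near the lowest control. Leaving out single samples gave log2 fold changes from 0.24 to 0.74. The highest was without knockdown replicate 1, with an unadjusted p of 0.0196 and an adjusted p of 1 in edgeR's exact test. With the ribosomal protein share as a covariate the log2 fold change was 1.03, with an unadjusted p of 0.00587 and an adjusted p of 0.999 (edgeR), the only value of a member past 2-fold under any alternative. DROSHA had 8.65, 7.97 and 10.4 CPM after knockdown against 13.4, 5.79 and 9.24, a log2 fold change of -0.09 (standard error 0.32). The controls of DROSHA spread more widely than the knockdown samples and enclosed them.

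XPO5, the exporter, had the most counts of the members beside AGO3. It had 112, 121 and 129 CPM after knockdown and 121, 125 and 152 in controls, and the log2 fold change of -0.14 had the smallest standard error of the members, 0.12. The exact permutation p was 0.4. The groups overlapped in CPM, and non-targeting replicate 3 was the only control above all knockdown samples. In TPM they did not overlap, at 177, 160 and 169 after knockdown and 194, 190 and 202 in controls. The share of all genes with such a separation in TPM was not counted. With length-scaled TPM counts the log2 fold change of XPO5 was -0.22, with an unadjusted p of 0.335 (edgeR's exact test).

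DICER1 had the lowest log2 fold change of the 9 tested genes, -0.42 (standard error 0.46). Its CPM was 5.92, 16.6 and 12.4 after knockdown and 17.3, 10.3 and 17.9 in controls. Knockdown replicate 1 was the lowest sample. Leaving out single samples gave log2 fold changes from -0.78, without knockdown replicate 2, to -0.06, without knockdown replicate 1, and the ribosomal protein share as a covariate gave 0.23. For TARBP2, the partner of DICER1, knockdown replicate 1 was also the lowest. It had 20.5, 35.9 and 39.4 CPM against 31.3, 36.0 and 37.6, a log2 fold change of -0.15 (standard error 0.29). It ranged from -0.33 to 0.12 with single samples left out, the highest without knockdown replicate 1. TNRC6A was level, with 19.1, 29.2 and 22.8 CPM against 29.6, 18.01 and 23.7 and a log2 fold change of -0.02 (standard error 0.26).

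**Figure D4:**
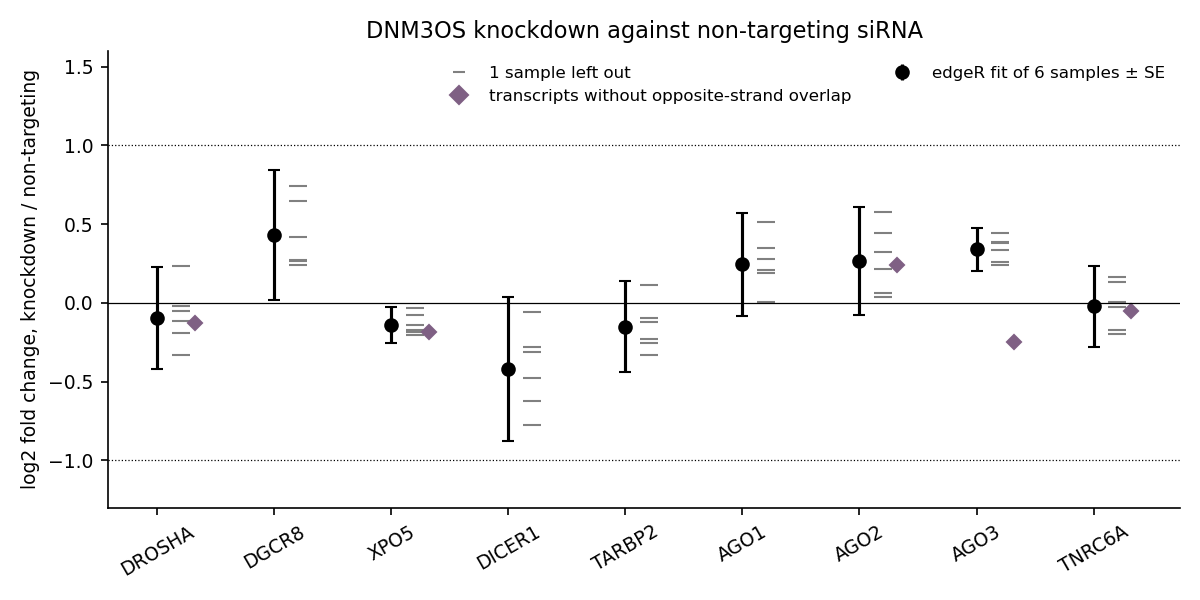
Log2 fold change of the 9 tested genes, knockdown against non-targeting, with its standard error (black), with each sample left out in turn (grey dashes) and on transcripts without opposite-strand exon overlap where these could be tested (purple). Dotted lines mark 2-fold, which none of the plotted values reached.

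Other genes of the pathway were described from 7 lists with 61 genes, of which 53 were tested. No gene passed the threshold in either direction, the smallest adjusted p being 1 (edgeR's exact test), and 2 had an unadjusted p below 0.05. Of the 53, 41 had a lower and 12 a higher value in the knockdown, with a median log2 fold change of -0.13, where 49.4% of all tested genes were lower. Lower values were also found among 7 genes whose mRNA is usually abundant, though here they had only 19 to 1340 estimated counts per sample. ACTB, GAPDH, EEF1A1, TUBA1B, FTH1, PRDX1 and SQSTM1 were lower in 7 of 7, with a median of -0.84, and the ribosomal protein share was 0.190% to 0.365% in the knockdown and 0.286% to 0.510% in controls. With that share as a covariate, an alternative added after seeing the data, 24 of the 53 were lower, and its part in the lower values was not tested. Leaving out single samples gave from 33 of 53 lower (without knockdown replicate 1) to 41 of 55 (without non-targeting replicate 2). With length-scaled TPM counts, 34 of 53 were lower.

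Cofactors of the Microprocessor were lower in 6 of 6 (median -0.34). DDX5, an RNA helicase and the highest of them, had 61.4, 99.0 and 129 CPM against 155, 102 and 147. The chaperones that load Argonautes were also lower in 6 of 6 (median -0.35), among them HSP90AA1, the inducible HSP90, with 130, 284 and 340 CPM against 465, 246 and 408. In both genes knockdown replicate 1 was the lowest of the 6 samples and non-targeting replicate 1 the highest. With the ribosomal protein share as a covariate, the medians were 0.04 for the cofactors and 0.26 for the chaperones. Without knockdown replicate 1, they were -0.10 and -0.06.

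Among the 25 tested effectors of silencing, 21 were lower (median -0.11). This count moved with the samples and the kind of count. Leaving out single samples gave from 15 of 25 lower (without non-targeting replicate 1) to 21 of 27 (without non-targeting replicate 2). Length-scaled TPM counts gave 15 of 25, and the ribosomal protein share as a covariate 14 of 25. CNOT7, a deadenylase of the CCR4-NOT complex and the highest of the list, had 248, 374 and 334 CPM against 361, 386 and 371. Of this list, 3 genes had groups that did not overlap in CPM, 12% of the 25, beside 7.97% of all tested genes. CNOT6, another deadenylase, had 2.28, 5.32 and 4.14 CPM against 9.49, 7.08 and 6.93, a log2 fold change of -1.05 (adjusted p = 1, edgeR's exact test). DCP1A, a decapping cofactor, was lower with 6.83, 3.32 and 7.59 CPM against 11.2, 7.72 and 8.09, and CNOT10, a subunit of CCR4-NOT, was higher with 53.2, 37.2 and 38.7 CPM against 36.3, 36.7 and 32.4. The estimated counts behind these were few for CNOT6 (5, 8 and 6 against 17, 11 and 12) and DCP1A (15, 5 and 11 against 20, 12 and 14). CNOT10 had 56 to 117 per sample.

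The remaining lists were small or divided in direction. The partners of Dicer were lower in 2 of 4 (median -0.04), with PRKRA, the paralogue of TARBP2, the highest at 43.7, 37.9 and 44.9 CPM against 43.0, 42.5 and 35.8. In this list TSN, a subunit of the C3PO nuclease, was lower without overlap, at 12.3, 9.30 and 18.64 CPM against 20.1, 18.66 and 23.1. Export and import genes were lower in 2 of 3 (median -0.23), and XPO1 had 46.0, 67.1 and 53.2 CPM against 72.0, 54.0 and 67.6. Genes for precursor and miRNA turnover were lower in 4 of 8 (median -0.03). TUT4, a uridylyl transferase, was the highest of them with 86.0, 64.5 and 71.1 CPM against 62.5, 73.3 and 69.3. Of the PIWI proteins, the germline relatives of the Argonautes, PIWIL2 alone had enough counts, with 17.3, 13.3 and 15.9 CPM against 7.26, 19.9 and 6.35, and PIWIL3 and PIWIL4 had 0 counts in every sample. Over all 7 lists, 4 of 53 genes had groups that did not overlap, 7.55%, beside 7.97% of all tested genes.

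**Figure D5:**
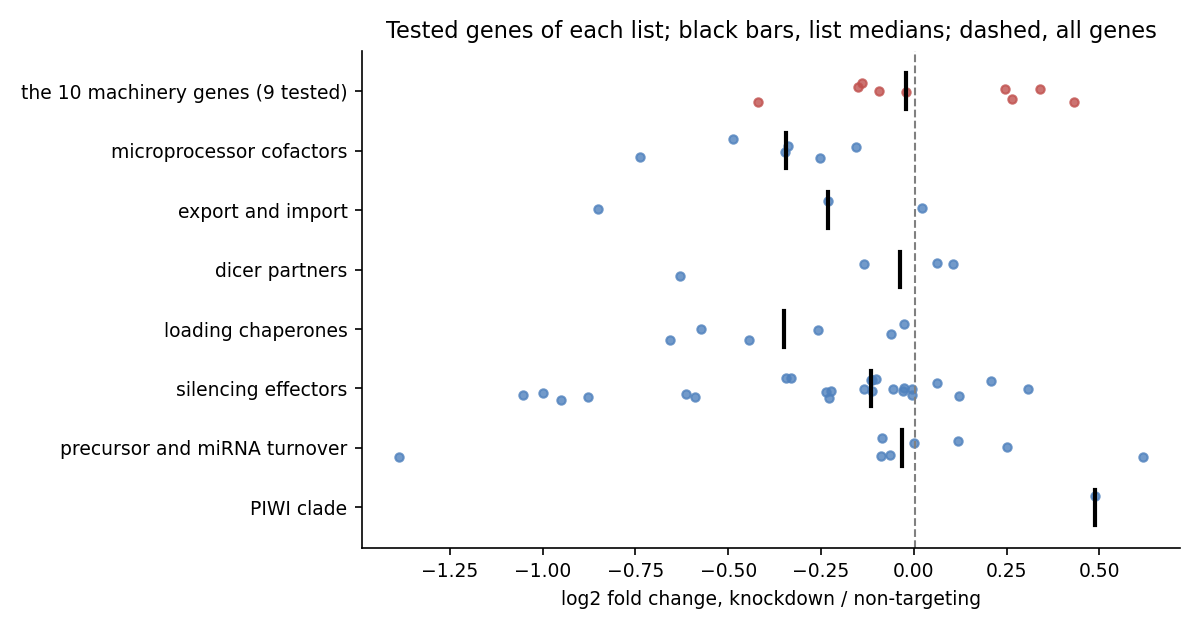
Log2 fold change of each tested gene, knockdown against non-targeting, for the machinery genes (red) and the 7 pathway lists (blue), with list medians as black bars and the median of all 11814 genes as a dashed line. The medians of the Microprocessor cofactors and loading chaperones lie at -0.34 and -0.35.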

How the data were processed

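Total RNA was depleted of ribosomal RNA and sequenced as paired reads from stranded libraries, which the authors quantified with kallisto 0.43.0 against Ensembl transcripts of GRCh38. The files deposited by the authors give an estimated count (not normalized) and a TPM per transcript, with length and effective length. Of 173259 transcripts, 155518 were in GENCODE release 44 and were summed per gene. The other 17741 were left out. Estimated counts were rounded, filtered (filterByExpr, minimum count 10), TMM-normalized and tested with edgeR 4.0.16 (exact test, Benjamini-Hochberg over all genes, R 4.3.3). The study's methods name tximport and edgeR's exact test. The GENCODE match, rounding, filter and TMM were choices made here. CPM use TMM-scaled totals, and standard errors come from log2 CPM (prior count 2). Opposite-strand exons were found with bedtools 2.31.1 (at least 1 base). Words of 31 bases were taken from GENCODE sequences. Of 66 member transcripts with counts, 12 had another length there than in the files. Samples were grouped by their titles. Members, lists and tests were chosen with earlier results of these data known. Named genes were the 10 members and, of each list, the gene with the highest mean CPM and those called or without overlap. The genes paired with FTH1 were named from earlier results. Alternatives were the edgeR quasi-likelihood test, DESeq2 1.42.0, other normalization, filters, kinds of count and transcripts, and each sample left out. Some shared sequences are not reported here.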

Additional observations from a re-analysis of the deposited data

How the results depend on the processing

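In the 16 alternative fits, 0 of the members tested and 0 other pathway genes were called. Of the members, 9 were tested in most fits, 5 without overlapped transcripts, and AGO4 only with no filter or 1 CPM in 3 samples. The count was 0 also without a minimum fold change in the exact test. Of 140 member values under alternatives, 129 kept their direction. A covariate for the ribosomal protein share was added once the data had been seen. With it, the log2 fold changes turned to 0.23 for DICER1, 0.34 for DROSHA, 0.037 for TARBP2 and 0.34 for TNRC6A. DROSHA was 0.16 with length-scaled TPM counts, and AGO3 -0.25 on transcripts without opposite-strand exon overlap, where DICER1, DGCR8, AGO1 and TARBP2 could not be tested. Leaving out single samples gave -0.33 to 0.24 for DROSHA, -0.33 to 0.12 for TARBP2 and -0.20 to 0.16 for TNRC6A, and the cause was not tested. Of all genes, the exact test called 1 down and 0 up. DESeq2 called 0 down (192 genes at an unadjusted p below 0.05), the quasi-likelihood test 0 (346), and the exact test's alternatives gave 0 without overlapped transcripts (269), 2 with no filter, 2 with 1 CPM and 4 with length-scaled counts (2 up). The covariate fit called 0 down (416). Leaving out single samples gave 0 to 3 down and 0 to 1 up. With the replicate number as a block, 0 genes were called down (160 at that p). Same-numbered samples had correlations of their deviations of -0.40, -0.34 and 0.23, so the numbers were not taken as pairs. Only non-targeting replicate 3 correlated best with the sample of its own number in the other group. Of 10 places in the TPM order, 6 were kept without overlapped transcripts. Leaving out single samples kept 6 to 10 places, the fewest without knockdown replicate 1. Protein-coding transcripts alone, chosen after seeing the data, kept 2. Without overlapped transcripts, the summed CPM was 175 in the knockdown and 185 in controls. AGO4 had 3 to 10 counts per sample and DROSHA 9 to 24.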
